A study of Danio rerio with 16 samples.

Results

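Gonads of zebrafish (Danio rerio) homozygous for a miR-214 mutation were compared between reciprocal crosses, in which the homozygous parent had been either the mother or the father. The members were all 8 libraries whose labels give this genotype, 4 from the maternal cross and 4 from the paternal cross, of 16 libraries in the series. The other 8 libraries were heterozygous (HET) gonads of the same crosses, 4 from each, and served here only to ask whether a cross difference was also seen in that genotype. In the maternal cross, homozygous (KO) offspring came from a homozygous mutant female mated to a heterozygous male. In the paternal cross, they came from a heterozygous female mated to a homozygous mutant male. All groups carried the vasa:eGFP transgene, a germ cell reporter, and the labels give the line as mz 06de in the TUE breed, made with CRISPR-Cas9 and 2 sgRNAs. The fish facility's stated stock was a mix of the AB and TU strains kept at 28 °C. The age is 31 days post fertilization in the titles but 27 days in the age label. Each library was made from polyadenylated RNA of a pool of gonads, with 9, 9, 9 and 8 gonads in the KO libraries of both crosses, 7 in each maternal-cross HET library and 9 in each paternal-cross HET library. There was no wild-type group, and no label gives the number of parent pairs or the sex of the fish. Differences between families therefore cannot be told apart from the genotype of the mother or father, and p-values measure the spread between pools.

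MicroRNAs bind messenger RNAs through a short seed sequence and lower their stability or translation. A mutant mother loads no functional copy of a microRNA into her eggs, whereas a heterozygous mother can, so reciprocal crosses separate what the egg received from what the embryo makes. In zebrafish embryos miR-214 is known for tuning Hedgehog signalling in muscle through the inhibitor sufu. Juvenile zebrafish gonads pass through a stage with immature oocytes before they become ovary or testis, with gsdf, amh and dmrt1 on the testis side and foxl2 genes and the aromatase cyp19a1a on the ovary side.

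The KO libraries held 22.4 ± 1.95 M (mega, SD, n = 4) counts in the maternal cross and 23.8 ± 0.83 M in the paternal cross. An exact two-sided permutation test found no difference beyond the spread (p = 0.343, adjusted p = 0.514 over 3 library measures, smallest possible p 0.0286). At these depths 3 counts, taken as the detection floor, correspond to 0.122 to 0.151 counts per M of the unscaled library total, for counting error only. Levels are given as normalised CPM (counts relative to the scaled library total). In maternal-cross KO replicate 3, for example, 3 counts were 0.143 normalised CPM. The germ cell helicase DDX4 (vasa) was at 1147 to 1224 CPM in the maternal-cross KO libraries and at 1162 to 1268 CPM in the paternal-cross KO libraries, so the labelled tissue had its defining germ cell transcript in every library. In such bulk samples, fewer cells of a type and less RNA per cell cannot be told apart.

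The microRNA gene itself, MIR214 (ENSDARG00000083042), was counted at 0, 0, 1 and 4 reads in the libraries labelled maternal-cross KO and at 5, 7, 3 and 4 reads in those labelled paternal-cross KO. The HET libraries held 3, 4, 9 and 3 reads in the maternal cross and 0, 2, 0 and 0 reads in the paternal cross. Pooled over each group these were 0.0559 reads per M counts (95% Poisson interval 0.0181 to 0.130), 0.200 (0.120 to 0.312), 0.203 (0.122 to 0.317) and 0.0172 (0.00209 to 0.0622). Within the maternal cross the KO libraries were the lower group, and within the paternal cross the HET libraries were. Which bases the mutation removed is not given in the sources used here, and a library of polyadenylated RNA does not measure the mature microRNA, so these few reads check the labels only if the counted bases lie in the removed segment. The order in the paternal cross would then go against the labels, and each direction given here rests on the labels as deposited. The host gene dnm3a had 255 to 393 reads in the maternal-cross and 322 to 528 reads in the paternal-cross KO libraries.

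Few genes passed the threshold between the KO gonads of the reciprocal crosses, with 4 pools a side. With edgeR's quasi-likelihood test and a Benjamini-Hochberg adjusted p under 0.05 as the threshold, 344 of 21683 genes tested passed, which is 1.59% of them. Higher levels in the maternal cross were found for 191 genes (0.881%) and lower levels for 153 (0.706%). At least a doubling or halving, an absolute log2 fold change of 1, was reached by 168 of the 344. The median absolute log2 fold change of the called genes was 0.98, while the median log2 fold change over all genes tested was 0.00. The 4 maternal-cross and the 4 paternal-cross values did not overlap for 319 of the called genes, and 9.69% of all genes tested had libraries that did not overlap, 4.71% with higher and 4.99% with lower values in the maternal cross. The called genes that were higher had a median of 14.3 CPM over the KO libraries and those that were lower 5.39 CPM, beside 8.34 CPM over all genes tested. The number of calls was 208 without maternal-cross KO replicate 1 and 109 without replicate 3. It was 162, 119, 164 and 176 without paternal-cross KO replicates 1, 2, 3 and 4 in turn. With the DESeq2 Wald test it was 836. An unadjusted edgeR p under 0.05 was reached by 15.6% of all genes tested, so the 344 calls need not be all the genes that differ.

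Among the genes higher in the maternal-cross KO gonads, several are textbook targets of the glucocorticoid receptor, the nuclear receptor that mediates the cortisol response. Of 21 tested genes in a list of such targets, made after the values had been seen, 6 rose and 0 fell. Over all genes tested 0.881% rose and 0.706% fell. In the list 19 genes had a positive log2 fold change. The median log2 fold change of the list was 0.81, beside 0.00 for all genes tested. FKBP5, a co-chaperone of the glucocorticoid receptor, was at 117, 67.5, 79.0 and 116 CPM in the maternal-cross KO libraries. It was at 31.2, 22, 26.2 and 33.5 CPM in the paternal-cross KO libraries, so every maternal-cross library was above every paternal-cross library. It was thus 3.36-fold higher (log2 fold change 1.75, SE 0.245, edgeR adjusted p = 0.00271).

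The other called targets had the same pattern. tsc22d3, whose product GILZ carries anti-inflammatory effects of glucocorticoids in mammals, was at 103, 67.2, 76.5 and 85.1 CPM against 28.5, 28.9, 28.7 and 29.5 CPM. The groups were far apart, and the paternal-cross libraries were nearly identical (log2 fold change 1.52, SE 0.185, edgeR adjusted p = 0.000908). KLF9, a zinc finger factor induced by glucocorticoid and thyroid hormones, was at 21.2, 15.2, 16.9 and 18.3 CPM against 7.55, 6.79, 7.88 and 8.12 CPM. Its log2 fold change was 1.24 (SE 0.117) and its edgeR adjusted p of 4.85e-05 was shared with CYP24A1 as the next smallest after that of si:ch211-158d24.4. DDIT4, an inhibitor of mTORC1, was at 32.3, 33.3, 35.5 and 24.4 CPM against 14.8, 21.3, 17.8 and 13.0 CPM. Its lowest maternal-cross value was above its highest paternal-cross value (log2 fold change 0.91, SE 0.134, edgeR adjusted p = 0.00368).

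CEBPD, a bZIP transcription factor, averaged 24.9 ± 5.76 CPM in the maternal cross and 10.7 ± 0.609 CPM in the paternal cross (SD, n = 4 each; log2 fold change 1.22, edgeR adjusted p = 0.00820). ANGPTL4, an inhibitor of lipoprotein lipase, averaged 48.0 ± 12.6 CPM and 21.6 ± 4.66 CPM (log2 fold change 1.15, edgeR adjusted p = 0.0127). Neither gene's libraries overlapped between the crosses. The receptor gene NR3C1 did not pass the test, with 24.7 CPM in the maternal cross and 23.6 CPM in the paternal cross (log2 fold change 0.06, edgeR adjusted p = 0.881). Other listed targets that did not pass included the kinase gene sgk1 (log2 fold change 0.39, edgeR adjusted p = 0.0514), zbtb16b (0.81, adjusted p = 0.0580), DUSP1 (0.45, adjusted p = 0.0597) and PDK4 (0.83, adjusted p = 0.166). Without maternal-cross KO replicates 3 and 4, the libraries with the most pancreatic RNA, FKBP5, tsc22d3, KLF9 and DDIT4 still passed the threshold and CEBPD and ANGPTL4 did not. That fit has fewer libraries and kept 43 of all 344 KO calls, so most calls were lost in it.

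In HET gonads 1 of the 21 listed targets, KLF9, passed the test, beside 3.92% of all genes tested. KLF9 was lower in the maternal cross, as were 1.19% of all genes tested. FKBP5 was at 33.3, 43.5, 66.7 and 30.9 CPM in the maternal-cross HET libraries and at 65.0, 43.2, 38.6 and 56.8 CPM in the paternal-cross HET libraries. These ranges overlapped (log2 fold change -0.22, edgeR adjusted p = 0.557). The difference between the KO and the HET cross differences, tested as an interaction term in edgeR, was 1.97 on the log2 scale for FKBP5 (adjusted p = 0.0314). For KLF9 it was 1.72 (adjusted p = 0.000179), and here the HET libraries differed the other way, with 8.10 to 10 CPM in the maternal cross and 10.9 to 13.6 CPM in the paternal cross. The interaction term passed for DDIT4 (1.27, adjusted p = 0.00766) and missed the threshold for tsc22d3 (1.29, adjusted p = 0.0507), CEBPD (1.09, adjusted p = 0.0966) and ANGPTL4 (0.57, adjusted p = 0.316). Among the group means of FKBP5, KLF9 and DDIT4, the maternal-cross KO was the highest and the paternal-cross KO the lowest. These genes were called on the KO libraries, which in part fixes this order.

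**Figure D1:**
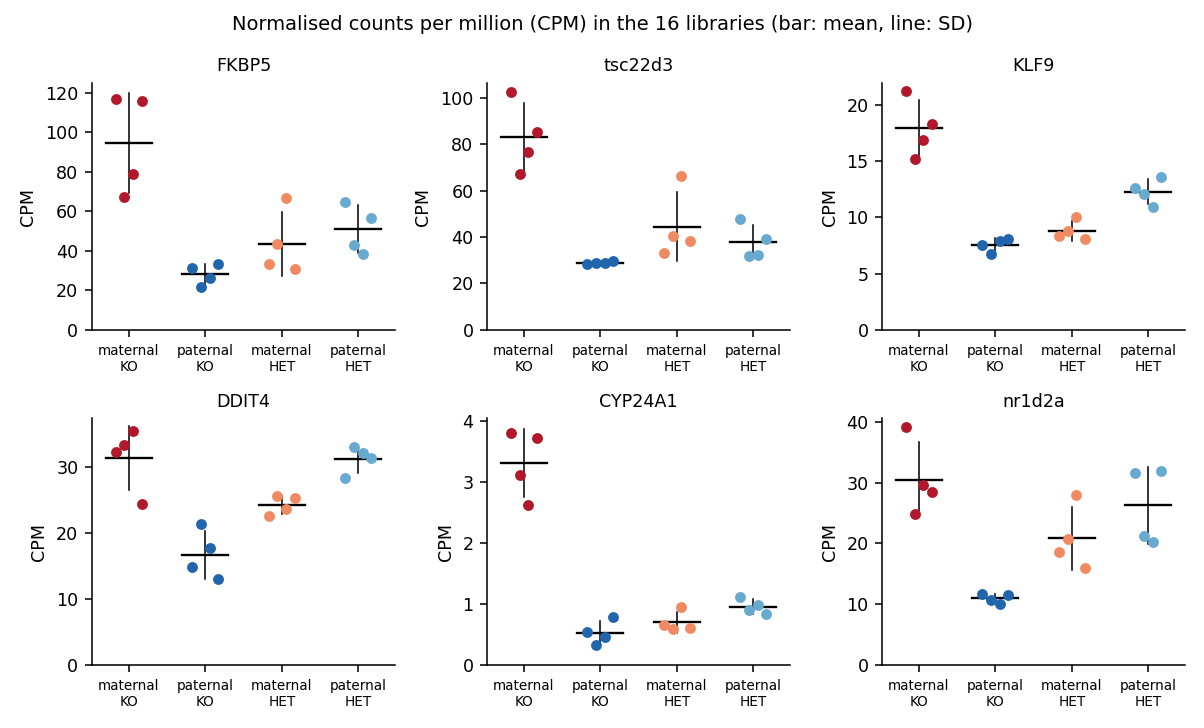
Normalised CPM of 6 genes called higher in maternal-cross than in paternal-cross KO gonads, by group; each point is 1 library, bars are means and lines SD (n = 4). In all 6 panels the 4 maternal-cross KO libraries lie above the 4 paternal-cross KO libraries, and for FKBP5 they range from 67.5 to 117 CPM against 22 to 33.5 CPM.

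Other single genes higher in the maternal-cross KO gonads act in metabolism and autophagy, and no gene list was tested for them. CYP24A1, which encodes the enzyme that inactivates vitamin D hormone, was at 3.79, 3.11, 2.61 and 3.72 CPM in the maternal-cross KO libraries and at 0.548, 0.339, 0.459 and 0.793 CPM in the paternal-cross ones. It was low everywhere but 6.10-fold higher in the maternal cross, with no overlap (log2 fold change 2.61, SE 0.244, edgeR adjusted p = 4.85e-05). One of the PDK2 genes (ENSDARG00000059054), encoding a kinase that inhibits pyruvate dehydrogenase, was at 46.5, 32.9, 34.5 and 46.9 CPM against 9.16, 8.87, 9.97 and 15.2 CPM (log2 fold change 1.90, SE 0.309, edgeR adjusted p = 0.00826). The other PDK2 gene (ENSDARG00000020876) averaged 34.7 ± 5.65 CPM against 19.2 ± 3.22 CPM (log2 fold change 0.86, edgeR adjusted p = 0.0411). The most abundant of these genes was hif1al, named for its likeness to the oxygen-regulated factor HIF-1 alpha, at 189, 155, 166 and 164 CPM against 109, 107, 116 and 112 CPM. Its change was small and very even between pools (log2 fold change 0.60, SE 0.0687, edgeR adjusted p = 0.000474). ULK2, a kinase that starts autophagy, averaged higher by a log2 fold change of 1.28 (SE 0.198, edgeR adjusted p = 0.00519). CYP24A1, hif1al and ULK2 still passed without maternal-cross KO replicates 3 and 4, and PDK2 (ENSDARG00000059054) did not.

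The clock repressor nr1d2a (Rev-erb beta) was at 39.1, 24.8, 29.7 and 28.5 CPM in the maternal-cross KO libraries and at 11.6, 10.7, 10.1 and 11.6 CPM in the paternal-cross ones. The groups did not overlap (log2 fold change 1.47, SE 0.187, edgeR adjusted p = 0.00108). Its interaction with genotype passed (1.80, adjusted p = 0.00712). tefb, a PAR bZIP factor under clock control, was the other called gene of the circadian list (log2 fold change 0.56, SE 0.104, edgeR adjusted p = 0.0132). Of the 31 tested genes in that list these 2 rose and 0 fell, beside 0.881% and 0.706% of all genes tested. The list median was 0.10. Without maternal-cross KO replicates 3 and 4, nr1d2a still passed and tefb did not, in a fit that kept 43 of all 344 KO calls. The core feedback gene PER2 stood at 38.6 CPM in the maternal cross and 35.2 CPM in the paternal cross (log2 fold change 0.14, edgeR adjusted p = 0.544). The hour of collection is not given in the labels, and its part in these results was not tested.

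Of 27 tested immediate early and heat shock genes, 3 rose and 0 fell, beside 0.881% and 0.706% of all genes tested. The list median was 0.09. FOSB, a subunit of the AP-1 factor, was at 2.43, 1.29, 1.57 and 3.84 CPM against 0.509, 0.509, 0.209 and 0.415 CPM, with no overlap (log2 fold change 2.46, SE 0.363, edgeR adjusted p = 0.00368). FOSL1, another AP-1 subunit, rose by a log2 fold change of 1.85 (edgeR adjusted p = 0.0379), and the orphan nuclear receptor gene NR4A1 by 0.39 (edgeR adjusted p = 0.0453). Outside the list, SOCS3, a feedback inhibitor of cytokine signalling, rose by 1.50 (edgeR adjusted p = 0.0127). STAT3, the factor that induces SOCS3 and also not in the list, rose by 0.54 (edgeR adjusted p = 0.0257). Heat shock genes of the list, such as the mitochondrial chaperonin genes HSPD1 and HSPE1, had log2 fold changes of 0.14 and 0.09 with edgeR adjusted p-values of 0.447 and 0.655. SPATA18, a regulator of mitochondrial quality, was at 51.7, 61.1, 53.0 and 48.3 CPM against 30.1, 32.2, 18.8 and 27.1 CPM (log2 fold change 0.98, edgeR adjusted p = 0.0123). It was the 1 called gene among 15 tested of sperm and motile cilium genes, while 0.881% of all genes tested rose.

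Of 28 tested extracellular matrix genes 0 were called by edgeR in the KO comparison, with a median log2 fold change of 0.03. At an unadjusted p under 0.05 they held 2 genes, while 15.6% of all genes tested were at that level, 7.77% higher and 7.87% lower in the maternal cross. Of 10 tested endothelial genes, with a median of -0.21, 0 rose and 1 fell, beside 0.881% and 0.706% of all genes tested. The 1 called was the receptor tyrosine kinase gene tek, which fell by 0.73 (edgeR adjusted p = 0.0495) and passed in 1 of the 8 fits with 1 KO library left out. Outside these lists, loxl2a, which encodes a lysyl oxidase-like enzyme of collagen cross-linking, was at 61.7, 40.8, 54.4 and 68.4 CPM against 23.2, 17.4, 17.2 and 25.9 CPM, without overlap (log2 fold change 1.43, SE 0.208, edgeR adjusted p = 0.00346). lyve1a, a hyaluronan receptor of lymphatic endothelium, rose by 1.94 (SE 0.265, edgeR adjusted p = 0.00231), and DAB2, an endocytic adaptor, by 1.80 (SE 0.258, edgeR adjusted p = 0.00323). The connexin gene gja12.1 was at 1.62, 1.82, 1.24 and 2.81 CPM against 0.157, 0.212, 0.25 and 0.0378 CPM (log2 fold change 3.50, SE 0.782, edgeR adjusted p = 0.0354). Its paternal-cross values were near the detection floor, so the size of that change is poorly determined. The gja12.1 call was lost with any 1 of the 8 KO libraries left out, without maternal-cross KO replicates 3 and 4 together, and with the replicate block. The fit without replicates 3 and 4 kept 43 of all 344 KO calls and the block kept 130.

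**Figure D2:**
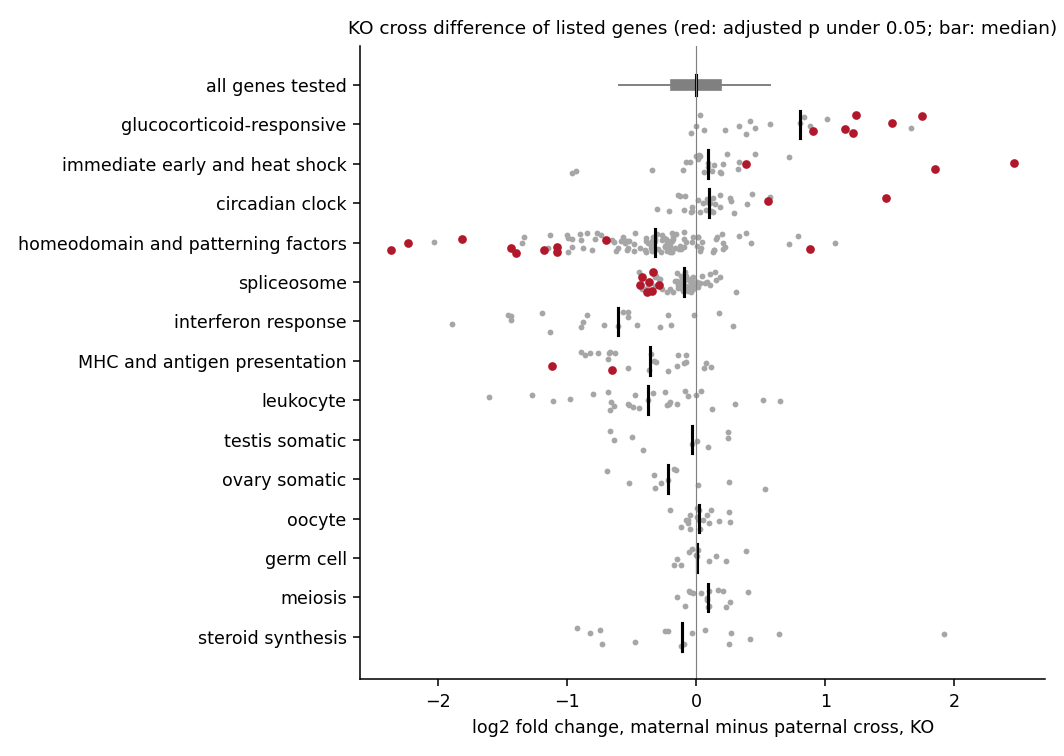
Log2 fold change between maternal-cross and paternal-cross KO gonads (x axis) of each tested gene in 14 gene lists (y axis). Red points passed an edgeR adjusted p of 0.05 and black bars are list medians. The grey bar at the top spans roughly the middle quartiles of all genes tested, its line the 5th to 95th percentiles. The median of the glucocorticoid-responsive list, made like the patterning and spliceosome lists after the values had been seen, lies at 0.81. The medians of the oocyte and germ cell lists lie at 0.02 and 0.01.

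Genes lower in the maternal-cross KO gonads included transcription factors of embryonic patterning. Of 108 tested genes in a list of homeodomain and related patterning factors, made after the values had been seen, 9 fell and 1 rose. Over all genes tested 0.706% fell and 0.881% rose. The list median was -0.32 beside 0.00 for all genes tested. SP8, a zinc finger factor of limb and brain development, was at 0.725, 0.332, 0.380 and 1.28 CPM in the maternal-cross KO libraries. It was at 2.43, 6.15, 2.38 and 3.17 CPM in the paternal-cross KO libraries, all above the maternal-cross values (log2 fold change -2.36, SE 0.424, edgeR adjusted p = 0.0123). The homeobox gene otx2a was at 1.88, 1.53, 1.24 and 1.49 CPM against 4.30, 9.93, 4.09 and 3.32 CPM (log2 fold change -1.81, SE 0.323, edgeR adjusted p = 0.0121). For both genes paternal-cross KO replicate 2 was the highest library.

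EMX2, a homeobox gene required for the gonad to form in mice, was at 11.2, 10.3, 12.9 and 14.7 CPM against 19.3, 21.4, 17.1 and 22 CPM, without overlap (log2 fold change -0.70, SE 0.141, edgeR adjusted p = 0.0226). The Hox gene hoxc11b averaged 5.45 CPM against 11.5 CPM (log2 fold change -1.07, edgeR adjusted p = 0.0152). DMBX1, PAX1, HOXC5 and HOXD11 also fell, by 2.23, 1.18, 1.43 and 1.4 on the log2 scale. DMBX1 and PAX1 passed with each of the 8 KO libraries left out in turn, but HOXC5 and HOXD11 in 1 of those 8 fits each. EMX2 passed in 3 of them, and the calls of EMX2, HOXC5 and HOXD11 were lost with the replicate block. The block kept 130 of all 344 KO calls. The HOXC5 call was also lost with the DESeq2 Wald test, at a minimum count of 30 and with only the groups compared. DLX6 rose instead, at 16.0, 18, 14.3 and 16.9 CPM against 10.9, 8.78, 9.22 and 6.46 CPM (log2 fold change 0.89, SE 0.183, edgeR adjusted p = 0.0249). Of the 8 fits, 4 kept the DLX6 call. Without maternal-cross KO replicates 3 and 4, 3 of the 10 called genes passed, beside 43 of all 344 KO calls.

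For all 9 patterning genes that fell, the paternal-cross KO had the highest of the 4 group means, as for 118 of all 153 genes called lower. Calling the genes on the KO libraries in part fixes this order. SP8 averaged 0.610 CPM in the maternal-cross and 0.351 CPM in the paternal-cross HET libraries, and its interaction term missed the threshold (edgeR adjusted p = 0.0573). HOXC5 passed it, at -3.19 on the log2 scale (edgeR adjusted p = 0.00741), and its HET libraries differed in the opposite direction. Its values were 0.124 to 0.248 CPM in the maternal-cross KO and 0.453 to 0.665 CPM in the paternal-cross KO libraries, a few times the detection floor at most. TFEC, a factor of the MITF family, and si:dkey-78k11.9 also passed both tests, with KO log2 fold changes of -1.25 and -1.75 and interaction terms of -2.09 and -2.63.

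Of 68 tested genes of the spliceosome, a list also made after the values had been seen, 7 fell, 0 rose and 61 did not pass. Over all genes tested 0.706% fell and 0.881% rose. The list median was -0.10. EFTUD2, a GTPase of the U5 particle, was at 200, 210, 186 and 209 CPM in the maternal-cross KO libraries and at 234, 295, 239 and 250 CPM in the paternal-cross ones (log2 fold change -0.34, SE 0.0809, edgeR adjusted p = 0.0453). SNRNP70, the U1 70K protein gene, was at 101, 94.5, 95.7 and 113 CPM against 118, 158, 124 and 137 CPM (log2 fold change -0.42, edgeR adjusted p = 0.0277). The libraries of both genes did not overlap between the crosses, and replicate 2 was again the highest paternal-cross library. CRNKL1, PRPF39, LUC7L, SF3B2 and SF3A2 fell by 0.43, 0.38, 0.37, 0.33 and 0.28 on the log2 scale. EFTUD2 did not pass with any 1 of the 8 KO libraries left out, and SNRNP70 passed in 3 of those 8 fits. Without maternal-cross KO replicates 3 and 4 no listed splicing gene passed in edgeR, in a fit that kept 43 of all 344 KO calls.

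The list of major histocompatibility complex and antigen presentation genes had a median of -0.36 beside 0.00 for all genes tested. In it 2 of 24 tested fell and 0 rose, beside 0.706% and 0.881% of all genes tested. The 2 that fell were the peptide editor gene tapbpl (log2 fold change -1.11, edgeR adjusted p = 0.0166) and ciita, the master activator of class II genes (log2 fold change -0.65, edgeR adjusted p = 0.0270). ciita was at 5.63, 4.06, 4.04 and 5.33 CPM against 7.51, 7.89, 6.59 and 7.97 CPM, with no overlap. Neither ciita nor tapbpl passed without maternal-cross KO replicates 3 and 4, a fit that kept 43 of all 344 KO calls. None of the 21 interferon response genes or the 29 leukocyte genes passed in the main edgeR fit. Of them, 12 and 7 were lower at an unadjusted p under 0.05, beside 7.87% of all genes tested, and the list medians were -0.60 and -0.37. With a within-group axis as covariate, which lowers the spread by construction, 11 antigen presentation, 10 interferon and 11 leukocyte genes passed, all lower. In that fit 1695 of all 21683 genes tested passed, 856 of them lower. With the replicate block 0 genes of each list passed, beside 134 of all genes tested. Without maternal-cross KO replicates 3 and 4, 0, 0 and 1 passed, beside 51 of all genes tested in that fit. Summed leukocyte transcripts ranged from 415 to 706 CPM in the maternal-cross KO libraries and from 584 to 1003 CPM in the paternal-cross ones, so the libraries overlapped. The antiviral GTPase gene mxb, for example, averaged 6.21 CPM and 16.8 CPM (log2 fold change -1.43, SE 0.422, edgeR adjusted p = 0.0974).

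Other genes with large decreases had varied roles. The glypican gene gpc2, a heparan sulfate proteoglycan of the cell surface, was at 2.43, 3.44, 2.95 and 3.68 CPM against 8.84, 10.4, 15.5 and 8.76 CPM (log2 fold change -1.80, SE 0.225, edgeR adjusted p = 0.000924). PCSK2, a prohormone convertase, was at 2.86, 2.65, 3.28 and 4.09 CPM against 7.20, 8.02, 6.22 and 8.83 CPM (log2 fold change -1.23, edgeR adjusted p = 0.00985). The libraries of both genes were well separated. The cytochrome P450 gene cyp2aa7 had the most negative log2 fold change of the called genes with a symbol whose libraries did not overlap and whose higher group averaged at least 1 CPM, at -2.43 (SE 0.445, edgeR adjusted p = 0.0127). It was followed by btr06 (-2.41), MIF4GD (-2.39), SP8 (-2.36), dok1a (-2.31), si:ch211-14a11.2 (-2.25), DMBX1 (-2.23) and zgc:172051 (-2.20). The most abundant genes that fell were EFTUD2, KIAA0232, SF3B2 and the dynein light chain gene dynll1, with log2 fold changes of -0.34, -0.43, -0.33 and -0.32.

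A smaller set of genes differed between the crosses in both genotypes. The HET comparison, which shares no library with the KO comparison, called 851 genes (3.92%), of which 594 (2.74% of those tested) were higher and 257 (1.19%) were lower in gonads of the maternal cross. Both comparisons called 59 genes, of which 55 had the same sign, 23 higher and 32 lower. These 55 were 16.0% of the KO list and 6.46% of the HET list. Over all called KO genes, 256 of 344 (74.4%) had the same sign in HET gonads, beside 52.3% of all genes tested. The HET count fell to between 146 and 402 without maternal-cross HET replicate 2 or 3 or paternal-cross HET replicate 2, 3 or 4, and rose to 1472 and 1991 without maternal-cross HET replicates 1 and 4. The 4 genes called in opposite directions were KLF9, HOXC5, NAT8L and PIM1.

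The smallest adjusted p-value of the KO comparison belonged to si:ch211-158d24.4, a gene named only by its clone. It was at 5.88, 5.60, 6.13 and 5.74 CPM in the maternal-cross KO libraries and at 0.391, 0.636, 0.417 and 0.831 CPM in the paternal-cross KO libraries. The maternal-cross HET libraries held 5.43, 5.32, 4.11 and 8.14 CPM and the paternal-cross HET libraries 0.422, 0.412, 0.255 and 0.279 CPM. Thus all 8 maternal-cross libraries were above all 8 paternal-cross libraries, whatever the genotype. In KO its log2 fold change was 3.34 (SE 0.255, by edgeR an adjusted p = 6.12e-06), and in HET it was 4.06 (edgeR adjusted p = 7.43e-07).

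AQP8, a water channel gene, was at 8.87, 7.05, 11.0 and 14.9 CPM against 3.25, 2.93, 3.21 and 4.0 CPM in KO gonads (log2 fold change 1.64, SE 0.252, edgeR adjusted p = 0.00519). In HET gonads its log2 fold change was 1.90 (edgeR adjusted p = 0.00221), again without overlap. The KO call of AQP8 was lost without maternal-cross KO replicates 3 and 4, a fit that kept 43 of all 344 KO calls. ntd5 was at 74.4, 62.4, 92.5 and 121 CPM against 32.7, 27.5, 23.8 and 49.8 CPM in KO gonads (log2 fold change 1.39, SE 0.306, edgeR adjusted p = 0.0331). In HET gonads its log2 fold change was 2.35 (edgeR adjusted p = 0.00221). Smaller rises in both genotypes were found for PLOD3, a lysyl hydroxylase of collagen (0.45 in KO and 0.56 in HET), for MED1, a subunit of the Mediator complex (0.77 and 1.39), for SIRT7, a nucleolar deacetylase (0.88 and 0.73), and for CALR, a chaperone of the endoplasmic reticulum (0.42 and 0.38).

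Of the genes lower in the maternal cross in both genotypes, MIF4GD, which acts in histone messenger RNA translation, had the largest KO decrease with at least 1 CPM in the higher group. It was at 2.90, 2.32, 2.66 and 3.39 CPM in the maternal-cross and at 10.6, 13.6, 27.4 and 7.55 CPM in the paternal-cross KO libraries (log2 fold change -2.39, SE 0.426, edgeR adjusted p = 0.0121). In HET gonads the log2 fold change was -3.19 (edgeR adjusted p = 0.00221). The paternal-cross pools varied several-fold among themselves, and all were above the maternal-cross pools. si:ch211-182p11.1 was at 2.17, 1.45, 1.95 and 2.56 CPM against 7.04, 7.81, 9.76 and 7.48 CPM in KO (log2 fold change -1.98, edgeR adjusted p = 0.000908) and also fell in HET (-2.30, edgeR adjusted p = 0.000208). LEF1, a transcription factor of Wnt signalling, was at 8.65, 7.96, 11.3 and 9.46 CPM against 15.2, 14.6, 14.9 and 13.9 CPM in KO, and its log2 fold change was -0.65 in KO and -0.69 in HET (edgeR adjusted p = 0.0127 and 0.00749). PAX1, a paired box factor, fell by 1.18 in KO and by 0.91 in HET (edgeR adjusted p = 0.0127 and 0.0317).

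**Figure D3:**
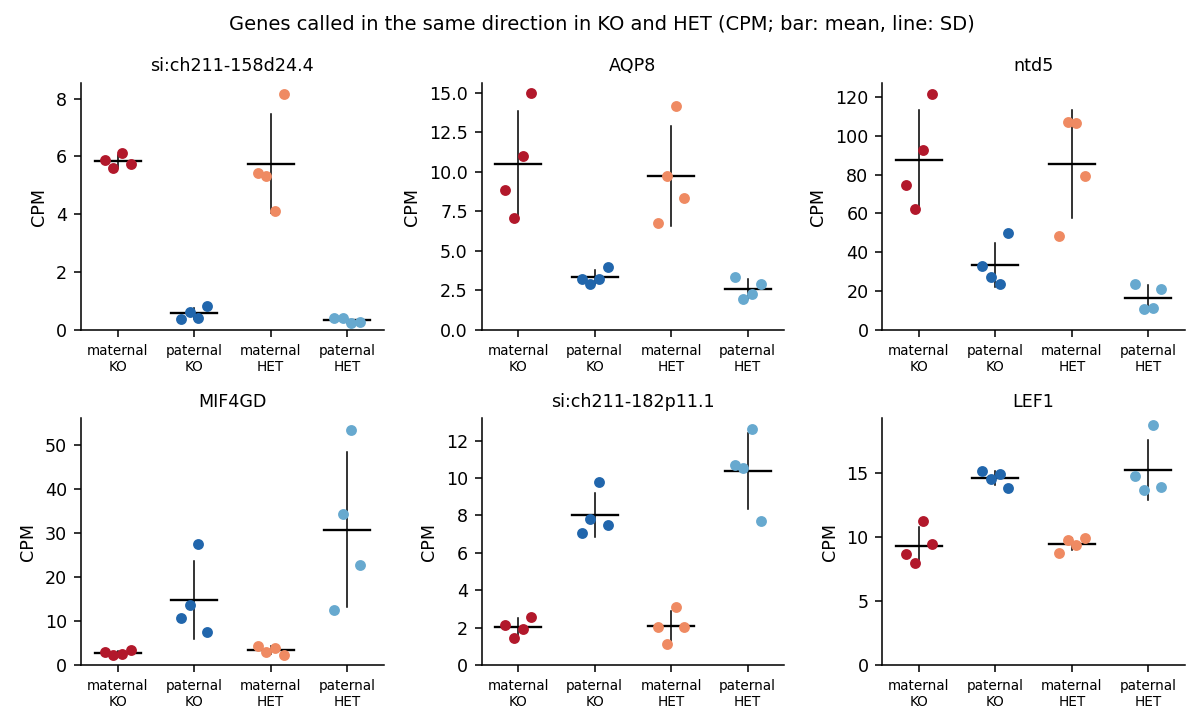
Normalised CPM of 6 genes called in the same direction in KO and in HET gonads, by group; each point is 1 library, bars are means and lines SD (n = 4). For si:ch211-158d24.4 the 8 maternal-cross libraries range from 4.11 to 8.14 CPM and the 8 paternal-cross libraries from 0.255 to 0.831 CPM.

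Some called genes were neighbours on a chromosome. The annotation order of 14212 tested genes, 65.5% of the total, was known, and 224 called KO genes were among them. Of these 224, 14 (6.25%) were next to a gene called in the same direction, while 1.73% of the placed genes were next to a gene called higher and 1.38% next to one called lower. LEF1 and cracdlb were such a pair, and both also fell in HET gonads (log2 fold change of cracdlb -0.40 in KO and -0.42 in HET, edgeR adjusted p in HET = 0.0238). Another pair, the pancreatic protease genes cela1.3 and cela1.4, rose by 5.03 and 4.78 on the log2 scale in KO and had log2 fold changes of 2.84 and 2.86 in HET that did not pass (edgeR adjusted p = 0.262 and 0.205). Of 9 tested genes named after the clone si:dkey-14d8, 5 were called in the KO comparison, 2 higher and 3 lower. It was the 1 clone with at least 2 called genes, so it was picked by the calls themselves. The 2 that rose were si:dkey-14d8.6 (log2 fold change 4.86, edgeR adjusted p = 0.0419) and si:dkey-14d8.7 (4.36, edgeR adjusted p = 0.0495), also a pair among the 14 neighbours. Neither passed in HET gonads (edgeR adjusted p = 0.177 and 0.371) or without maternal-cross KO replicates 3 and 4. si:dkey-14d8.6 was at 2.00, 2.99, 26.1 and 116 CPM in the maternal-cross KO libraries and at 3.09, 0.212, 0.375 and 1.32 CPM in the paternal-cross ones. Both genes were thus highest in replicates 3 and 4 of the maternal cross, the libraries with the most pancreatic RNA. The 3 called lower were lower in both genotypes, si:dkey-14d8.9, si:dkey-14d8.21 and one of the genes named si:dkey-14d8.23 (ENSDARG00000101565), with KO log2 fold changes of -1.76, -1.75 and -2.50. These 3 had under 2 CPM in every group mean. ENSDARG00000101565 had 2, 2, 1 and 3 reads in the maternal-cross KO libraries, at or below the detection floor of 3 counts.

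A further set of genes differed in one genotype in a way that differed from the other. The interaction term passed for 41 genes (0.189% of those tested), and 21 of these were also called in the KO comparison, 12 higher and 9 lower. The HET difference had the opposite sign in 20 of the 21, the exception being gcga. The number of genes passing the interaction term fell to between 14 and 24 without maternal-cross KO replicate 1, 2 or 3, paternal-cross KO replicate 1 or 4, maternal-cross HET replicate 2 or 3, or paternal-cross HET replicate 2, 3 or 4. It rose to 117 without maternal-cross KO replicate 4, to 143 without maternal-cross HET replicate 1 and to 181 without maternal-cross HET replicate 4. At an unadjusted p under 0.05 the interaction held for 57.8% of the called KO genes and for 18.3% of all genes tested. Among the 191 genes called higher, the maternal-cross KO had the highest of the 4 group means for 168 genes and the paternal-cross KO had the lowest for 129. Among the 153 called lower, the paternal-cross KO had the highest mean for 118 and the maternal-cross KO the lowest for 103. The genes were called on the KO libraries, so an extreme KO mean is in part fixed by that choice. The interaction term contains the KO difference, so that choice also favours a small interaction p among the called KO genes. Calling genes on both terms likewise favours HET differences of opposite sign.

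**Figure D4:**
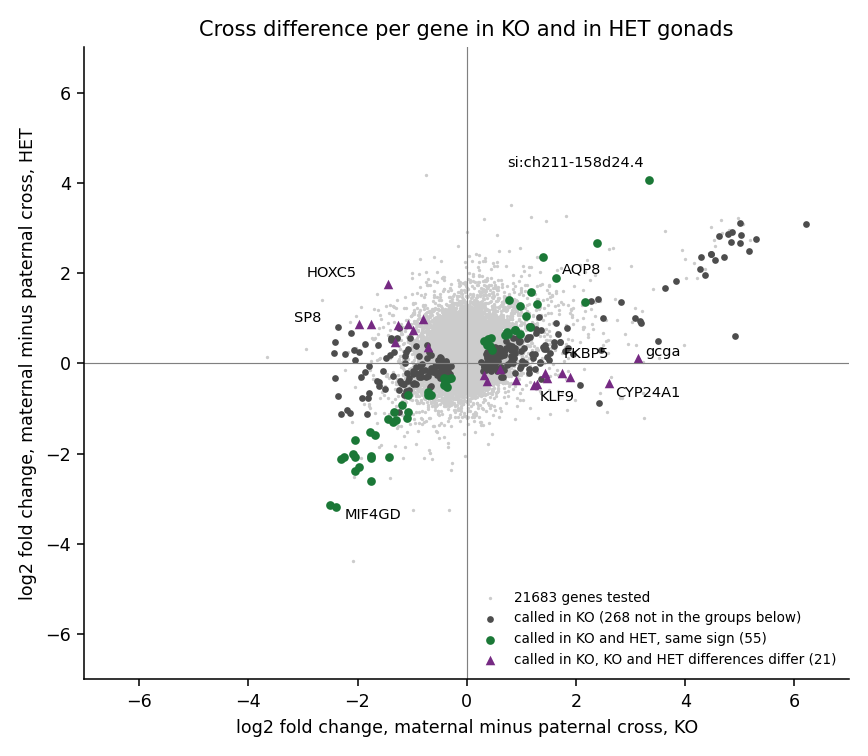
Log2 fold change of the maternal against the paternal cross in KO gonads (x axis) and in HET gonads (y axis), 1 point per gene tested; green points are the 55 genes called in both genotypes with the same sign, purple triangles the 21 called KO genes whose interaction with genotype passed, and dark points the other called KO genes. FKBP5, KLF9 and CYP24A1 lie at KO values of 1.75, 1.24 and 2.61 and at negative HET values. Of these HET differences only that of KLF9 passed the test.

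Pancreatic transcripts reached high levels in some maternal-cross KO libraries. Of 12 tested exocrine pancreas genes 7 passed in the KO comparison, all higher in the maternal cross, beside 0.881% of all genes tested. The 12 genes had a median log2 fold change of 4.74. Their summed level was 133, 277, 2310 and 10810 CPM in the maternal-cross KO libraries and 255, 34.4, 50.1 and 154 CPM in the paternal-cross KO libraries. Replicates 3 and 4 of the maternal cross carried the KO difference, and replicate 1 was below the highest paternal-cross KO library. The trypsin gene prss1 was at 22.9, 44.3, 358 and 1740 CPM against 39.9, 5.94, 7.93 and 21.3 CPM (log2 fold change 4.85, SE 1.19, edgeR adjusted p = 0.0497). The amylase gene amy2a had a log2 fold change of 5.17 (SE 1.17, edgeR adjusted p = 0.0373). In HET gonads the exocrine sum was 824, 135, 126 and 99.9 CPM in the maternal cross. It was 45.4, 89.2, 21.2 and 19.9 CPM in the paternal cross, so the HET libraries did not overlap. The list median was 2.78 in HET, where 0 of the 12 genes passed in edgeR, beside 3.92% of all genes tested. Without maternal-cross KO replicates 3 and 4, an alternative chosen after seeing the data, 0 of the 12 genes passed in edgeR. That fit kept 43 of all 344 KO calls. Apart from the fits without these libraries, the part of exocrine RNA in the other differences was not tested.

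The most abundant rises in the comparison were of this kind, prss1, the elastase gene ela2l and a carboxypeptidase gene, CPA1 (ENSDARG00000021339). spink4, a secreted protease inhibitor gene, had the largest log2 fold change among the called genes with a symbol whose libraries did not overlap and whose higher group averaged at least 1 CPM (4.27, SE 0.925, edgeR adjusted p = 0.0305), at 0.341, 0.580, 2.95 and 14.2 CPM against 0.274, 0.170, 0.125 and 0.340 CPM. As for the exocrine sum, maternal-cross replicates 3 and 4 were the highest of the 8 KO libraries. The spink4 call was lost without them, in a fit that kept 43 of all 344 KO calls. Liver transcripts had summed levels of 36.4, 19.6, 60.6 and 298 CPM in the maternal-cross and 22.4 to 33.7 CPM in the paternal-cross KO libraries, highest in the same replicates 3 and 4. In the main edgeR fit 0 of 14 liver genes passed, and 13 of them were higher at an unadjusted p under 0.05, beside 7.77% of all genes tested.

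The glucagon gene gcga, expressed in pancreatic islets and gut, was highest in maternal-cross KO replicate 4, while replicates 1, 2 and 3 were close to each other. It was at 10.9, 9.20, 11.6 and 40.3 CPM in the maternal-cross KO libraries and at 2.15, 1.78, 2.17 and 2.04 CPM in the paternal-cross KO libraries. All 4 maternal-cross libraries were above all paternal-cross ones, including those with little exocrine RNA (log2 fold change 3.14, SE 0.386, edgeR adjusted p = 0.000908). The HET libraries had 1.3 to 2.17 CPM in both crosses, and the interaction term was 3.03 (edgeR adjusted p = 0.0413). Of 8 tested islet genes, a list made after the values had been seen, gcga was the 1 that rose. PCSK2 was the 1 that fell (log2 fold change -1.23). The insulin gene insb averaged 11 CPM in both crosses (log2 fold change -0.03, edgeR adjusted p = 0.941), and ins 1.34 CPM and 0.819 CPM (log2 fold change 0.70, edgeR adjusted p = 0.341). The gcga call held without maternal-cross KO replicates 3 and 4.

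**Figure D5:**
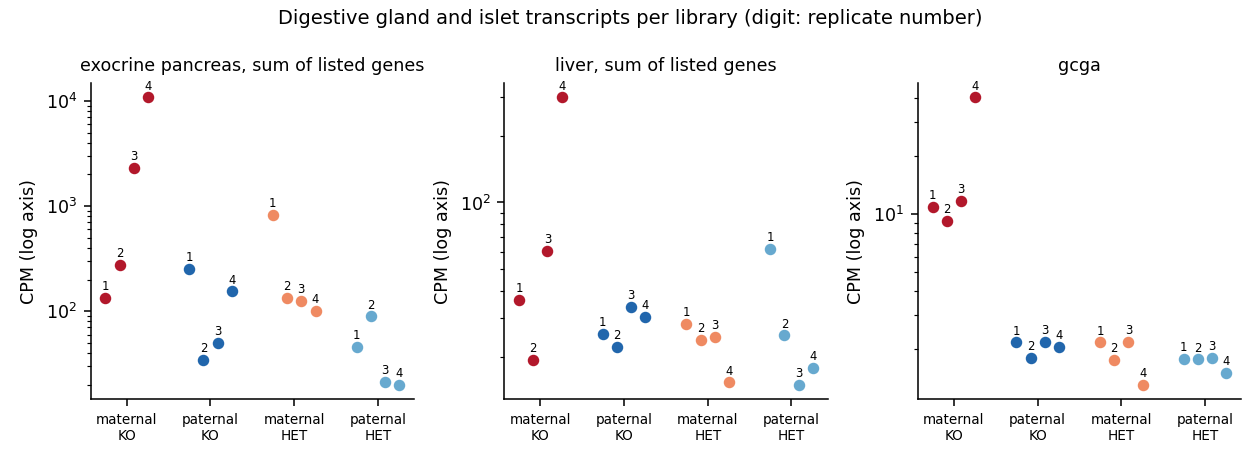
Summed normalised CPM of the listed exocrine pancreas genes and liver genes, and CPM of gcga, in each of the 16 libraries on log axes, with the replicate number at each point. Exocrine transcripts reach 2310 and 10810 CPM in maternal-cross KO replicates 3 and 4, while gcga is at 9.20 CPM or more in all 4 maternal-cross KO libraries.

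Genes of sex differentiation and of germ cells did not pass the threshold between the KO groups in the main edgeR fit. gsdf, a TGF-beta family factor of supporting cells, was at 291, 151, 186 and 221 CPM in the maternal-cross and at 296, 255, 307 and 462 CPM in the paternal-cross KO libraries. The ranges overlapped (log2 fold change -0.64, SE 0.260, edgeR adjusted p = 0.243). amh, anti-Müllerian hormone, was at 42.8, 20.1, 7.37 and 28.7 CPM against 24.9, 16.2, 26.5 and 64.2 CPM, a spread within each group that was as wide as that between them (log2 fold change -0.41, SE 0.579, edgeR adjusted p = 0.791). DMRT1, the testis transcription factor, was at 37.2, 19.6, 16.4 and 23.8 CPM against 20.5, 16.1, 17.1 and 28.1 CPM (log2 fold change 0.25, SE 0.311, edgeR adjusted p = 0.764).

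On the ovarian side, one FOXL2 gene (ENSDARG00000042180) was at 4.01, 4.02, 7.37 and 5.29 CPM against 7.20, 10.4, 7.47 and 8.12 CPM. Only maternal-cross replicate 3 reached the range of the paternal-cross libraries (log2 fold change -0.69, SE 0.196, edgeR adjusted p = 0.0878). The other FOXL2 gene (ENSDARG00000068417) had a log2 fold change of -0.52 (edgeR adjusted p = 0.244), and CYP19A1 (ENSDARG00000041348), aromatase, one of -0.21 (SE 0.200, edgeR adjusted p = 0.657). The oocyte growth factor genes GDF9 and bmp15 had log2 fold changes of 0.10 and 0.26 (edgeR adjusted p = 0.718 and 0.418), and DDX4 one of -0.03 (adjusted p = 0.904). SUFU, the Hedgehog inhibitor known as a miR-214 target in zebrafish embryos, was at 83.6, 91.3, 91.5 and 74.5 CPM against 81.1, 75.6, 76.1 and 65.0 CPM, with overlap (log2 fold change 0.20, SE 0.0890, edgeR adjusted p = 0.303).

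The same held for whole lists. Over 32 lists of cell type and pathway genes, 16 of 607 tested genes were called (2.64%, beside 1.59% of all genes tested). Of these 13 were higher and 3 lower, and 26 lists held no called gene. Exocrine pancreas genes made up 7 of the 13. Without maternal-cross KO replicates 3 and 4 the lists held 3 calls, 0 of them exocrine, beside 51 calls over all genes tested. In the main edgeR fit, 0 of 19 oocyte genes, 0 of 12 germ cell genes, 0 of 16 meiosis genes, 0 of 9 testis somatic genes and 0 of 11 ovary somatic genes passed. Their median log2 fold changes were 0.02, 0.01, 0.09, -0.03 and -0.21. At an unadjusted p under 0.05 these lists held 1, 2, 1, 2 and 2 genes, beside 15.6% of all genes tested. Also without a call were 16 genes of steroid synthesis, 17 of the Hedgehog pathway, 14 of the microRNA machinery, 25 of proliferation and 94 ribosomal protein genes, which held 3, 4, 1, 2 and 1 genes at an unadjusted p under 0.05. Summed oocyte transcripts were 16110 ± 1883 CPM in the maternal-cross and 16342 ± 1622 CPM in the paternal-cross KO libraries (SD, n = 4 each). Of the oocyte, germ cell, meiosis and gonad somatic lists, the DESeq2 Wald test called 1 ovary somatic gene, which was lower. It called 836 of all genes tested. The fit with a within-group axis as covariate called 2 testis somatic, 1 ovary somatic and 1 oocyte gene, all lower, beside 1695 of all genes tested.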

How the data were processed

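The deposited table holds raw counts, whole numbers by Ensembl gene and library, which the authors had not normalised. Per the submitters' processing notes the tools were STAR 2.4.1d, featureCounts 1.4.6 and DESeq2 with the danRer10 build, with no roles given. The annotation and the strand setting of the counting are not given in the sources used here, so overlapping genes and near-identical copies are uncertain. Per the labels' protocols a stranded mRNA kit was used and all libraries were read on 1 flow cell for 84 cycles.

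Columns were matched to samples by title, and 0 columns were left out. Symbols came from a gene name table that matched 26121 of 31953 identifiers (81.7%). Some symbols are human-style or shared by several genes, and those are told apart here by identifier. Genes were filtered with filterByExpr (minimum count 10, 21683 kept), normalised by TMM and tested with edgeR 4.0.16 in R 4.3.3, with 1 coefficient per group over all 16 libraries. Contrasts were maternal minus paternal cross in KO, in HET, and the difference of both. Benjamini-Hochberg adjustment covered the 21683 genes, and calls needed an adjusted p-value under 0.05. The SE is the log2 fold change over the square root of the F statistic. CPM are counts relative to the TMM-normalised library size in M. The procedure was tested on simulated data.

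Genes named by rule were, per direction, the 8 with the largest change (libraries not overlapping, at least 1 CPM in the higher group), the 4 most abundant, the 4 with the largest change in both genotypes, up to 3 with the largest interaction, up to 3 per list, and a set of sex and germ cell genes. Other named genes were chosen after their values were seen. The comparison and the gene lists were chosen with earlier results of these data known, and the lists of glucocorticoid targets, spliceosome, patterning and islet genes were made after the values were seen. Neighbours were read from the order of genes in a RefSeq annotation of the GRCz12tu assembly, which differs from the authors' build. Each library was counted as 1 replicate. No 2 KO libraries of a group agreed within sampling noise (chi-square per degree of freedom 6.46 to 50.9). That spread does not show whether the pools came from separate parent pairs. Alternatives were DESeq2 size factors, upper-quartile scaling, other filters, DESeq2 1.42.0 with its Wald test, fits restricted to a pair of groups, a replicate block, a within-group axis as covariate, stricter thresholds and leaving out each replicate. The values of 1 gene of the patterning list are not reported here.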

Additional observations from a re-analysis of the deposited data

Results flagged for a closer look

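In 13 of 190 sets of 4 values, 1 library lay far from the other 3, where chance gives about 1 in 20. In the maternal-cross KO group, replicate 4 stood apart for the summed liver genes (298 CPM, others 19.6 to 60.6), for the summed islet genes (62.9 CPM, others 30.9 to 31.6), for gcga (5.34 on the log2 CPM scale, others 3.22 to 3.55) and for si:ch211-135n15.1 (0.76, others 0.29 to 0.36). Replicate 3 was high for the summed patterning factors (593 CPM, others 542 to 550). Replicate 2 was high for SF3B2 (7.48 on the log2 CPM scale, others 7.32 to 7.34), and replicate 1 low for dynll1 (6.90, others 7.12 to 7.14).

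In the paternal-cross KO group, replicate 2 had the lowest total (22.6 M counts, others 24 to 24.3 M). Replicate 3 was low for the summed sperm and motile cilium genes (47.5 CPM, others 57.0 to 58.0) and high for dok1a (1.06 on the log2 CPM scale, others 0.24 to 0.32). Replicate 4 was high for the summed meiosis genes (404 CPM, others 325 to 334), nerve genes (81.9 CPM, others 73.0 to 74.0) and ribosomal protein genes (31731 CPM, others 26907 to 27446).

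The cross difference differed between KO and HET gonads, by edgeR's interaction term, for 8 of the genes named by rule. It was 3.05 for CYP24A1, 3.03 for gcga, 2.21 for PDK2 (ENSDARG00000059054), 1.80 for nr1d2a and 0.72 for hif1al on the log2 scale. For HOXC5 it was -3.19, for si:dkey-78k11.9 -2.63 and for TFEC -2.09.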

How the results depend on the processing

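Among the 940 alternative values of the genes named by rule, 688 kept direction and side of the threshold, 246 kept direction but lost the call, 4 gained it and 2 reversed, none of these among the 46 called genes. The 4 gains fell among the 10 genes not called in the main fit, which were the sex and germ cell genes and SUFU. With 1 library left out, the log2 fold change of DMRT1 ranged from -0.038 (without maternal-cross KO replicate 1) to 0.44, and that of amh from -0.81 to 0.14 (without paternal-cross KO replicate 4). Of the 344 KO calls, 79 (47 higher, 32 lower) passed with each of the 8 libraries left out in turn.

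The number of KO calls was 836 with the DESeq2 Wald test, 134 with a replicate block, 1695 with the within-group axis as covariate, 38 at an adjusted p under 0.01 and 168 at a log2 change of 1 or more either way. It ranged from 109 to 273 with 1 library left out. Without maternal-cross KO replicates 3 and 4, chosen after seeing the data, it was 51, of which 43 were among the 344. HET calls numbered 2026 with the Wald test, 193 with only the groups compared, 345 with the block, 4618 with the axis, 72 at 0.01, 348 with the fold limit and 146 to 1991 with 1 library left out. Interaction calls numbered 19 with upper-quartile scaling, 70 without a filter, 637 with the Wald test, 13 with the block, 2693 with the axis, 10 at 0.01 and 14 to 181 with 1 library left out. Calls in the 32 lists numbered 39 with the Wald test, 5 with the block, 80 with the axis and 3 without the 2 libraries. The axis was computed from the residuals of these libraries, so it lowers the spread by construction. The causes of the other shifts were not tested.

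Equal replicate numbers did not pair the KO libraries: their deviations correlated at -0.10, 0.12, 0.05 and 0.30. The interaction could not be fitted with only the KO groups.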
